A study of Mus musculus with 4 samples.

Results

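The collagen genes of the mouse were followed at the DNA level in the heart: 42 autosomal protein-coding genes of 20665 whose symbol names a collagen alpha chain. They were taken by symbol and split by the known assembly of their products into 11 fibrillar collagens, 4 basement membrane collagens (type IV) and 27 other collagens. Between them they hold 3182 usable CCGG sites of 912550 on the autosomes, counting sites within the gene span and 1 kb beyond it, and 6 of these sites lie in 2 collagen genes that share an end. DNA came from the left ventricle of C57BL/6 mice aged 8 weeks. There were 4 groups with 1 sample each: non-infarcted and infarcted tissue of wild-type mice, and non-infarcted and infarcted tissue of Neil3-/- mice. The labels date all 4 samples, the non-infarcted ones included, to 3 days after myocardial infarction. The sources used here give neither how the Neil3 allele was made nor whether animals were pooled. Neil3 encodes a DNA glycosylase, an enzyme that removes oxidized bases from DNA.

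Collagens are built of triple-helical chains. Types I and III form the fibrils of heart muscle and of the scar, with type V nucleating them. Type IV forms the sheet under endothelium and around cardiomyocytes, type VI forms beaded filaments between the sheet and the fibrils, and types XV and XVIII sit at the edge of the basement membrane. Fibroblasts are the main source of fibrillar collagen after infarction. Methylation of cytosine next to guanine is usually low at active or CpG-rich starts of genes and high within gene bodies.

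The assay, HMST-seq, reads short tags beside CCGG from 3 libraries per sample. HpaII cuts CCGG only where the inner cytosine is unmodified, MspI cuts it modified or not, and MspI after glucosylation spares sites with 5-hydroxymethylcytosine. The unmodified index divides HpaII signal by MspI signal, in percent, over one site or summed over the sites of a region. The glucosylated index puts the glucosylated MspI library in the place of HpaII. Both are relative, since the libraries of a sample had near-equal totals: 100% is an equal share of both libraries, not 100% of molecules, and a site can exceed it. Library totals ran from 34161766 to 43985354 units of signal, and how many tags lie behind a value is not known. Across sites, log2 HpaII and MspI signal correlated at 0.13 to 0.16. A high ratio often goes with a low MspI signal: the median MspI signal of collagen sites was 35.8, against 16.7 at sites with a ratio of at least 200% in all 4 samples and 71.9 at sites of at most 50% in all 4. One glucosylated library, that of non-infarcted wild-type tissue, stood apart. It correlated with MspI at 0.43 across sites, where the other samples had 0.62 to 0.65, and over collagen sites at 0.43 against 0.62 to 0.66. With 1 sample per group no difference has a replicate check. Errors beside differences are standard errors over the CCGG sites of a gene, which measure spread between sites and not between animals.

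Sequences at collagen starts show what the assay can and cannot read there. Of the 42 genes, 33 matched a promoter window of the RefSeq table on GRCm38.p6, with 36 windows of 250 bases before to 50 after a start. The motif CCGG, which reads the same on both strands, occurred in 22 of the 36 collagen windows and in 53.5% of 31365 windows of all genes. The 250 bases upstream of Col1a2 and Col3a1 are shown because these 2 chains of heart fibrils had the largest gene body differences below, and their upstream sequences differ in CpG content. The first has 11 CpG and 1 CCGG, which was not among the sites listed in all 4 samples. The second has no CpG at all and a GC content of 35.2%. Capitals mark CCGG, and both genes lie on the plus strand, at chr6:4505368-4505617 and chr1:45311288-45311537.
Col1a2 upstream: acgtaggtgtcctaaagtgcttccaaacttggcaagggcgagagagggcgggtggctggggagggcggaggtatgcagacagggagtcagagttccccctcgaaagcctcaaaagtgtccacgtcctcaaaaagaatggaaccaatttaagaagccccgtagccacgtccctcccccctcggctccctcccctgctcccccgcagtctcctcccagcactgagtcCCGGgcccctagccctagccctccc
Col3a1 upstream: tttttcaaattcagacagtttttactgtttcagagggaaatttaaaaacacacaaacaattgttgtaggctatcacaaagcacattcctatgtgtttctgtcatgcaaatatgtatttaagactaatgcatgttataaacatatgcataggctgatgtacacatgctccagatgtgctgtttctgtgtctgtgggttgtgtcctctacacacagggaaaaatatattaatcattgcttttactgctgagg

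Windows of 30 bases around a measured CCGG follow for 4 collagens: the start of Col1a2 and the start shared by Col4a1 and Col4a2, the downstream start of Col18a1, and, as a contrast with a low ratio, Col6a4. They lie at chr6:4505634-4505663 on the plus strand and, on the minus strand, at chr8:11313035-11313064, chr10:77113691-77113720 and chr9:106096908-106096937. Here capitals mark only the measured CCGG, and the Col4a1 window holds another CCGG in lower case.
Col1a2: ttggaggcaccctCCGGctggggaaacttt
Col4a1: ggcccgtggcacaCCGGcggccaggccggc
Col18a1: aggaccacaggagCCGGcccagcgcagagg
Col6a4: ttcagtttcaaggCCGGtgtttccagagcc

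Every set of 4 values below gives wild-type before Neil3-/- and, within each, non-infarcted before infarcted tissue. The site ratio at the Col1a2 window was 388%, 497%, 560% and 501%. At the Col4a1 window it was 378%, 305%, 258% and 299%, and at the Col18a1 window 291%, 364%, 420% and 386%. These 3 sites were high in every sample. The Col6a4 site, 233 bases before its start, was at 59.8%, 88.0%, 52.1% and 77.4%, below 100% in all 4. The MspI signal differed between these sites as well, at 73.7 to 121 units at the Col6a4 site and 9.94 to 14.6 at the Col1a2 site. Many CCGG of CpG-rich starts were not measured. Of 53 CCGG in the collagen windows, 19 were listed in all 4 samples (35.8%, and 36.0% of 38663 over all genes). Where another CCGG lay within 50 bases, 4 of 23 were listed (17.4%), against 15 of 30 elsewhere (50%). The window of Col4a1 has 6 CCGG of which 1 was listed, and those of Col4a2 and Col5a1 have 4 each with none listed.

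Collagen starts had mostly high unmodified ratios. For these counts and the distances below, the start was the upstream end of the gene span in the 33 genes with a known strand. Of these, 30 had a usable site within 1 kb of it. In Col27a1, Col20a1, Col6a5 and Col28a1 the start of the promoter window lay more than 1 kb inside that end. Sites beside those window starts could thus be missed. One such site, in Col27a1, was at 320%, 550%, 212% and 311%. Of the 83 start sites, 64 were above 100% in all 4 samples, 46 were at or above 200% in all 4 (55.4%) and 1 was at or below 50% in all 4. In the 1 kb before the start 45.2% of collagen sites reached 200% in all 4, and 49.7% over all genes with a known strand. In the 1 kb after it the shares were 61.5% and 49.4%. At or below 50% in all 4 were 3.23% of collagen sites before the start and 0% after it, with 3.39% and 2.48% over all genes. At the far ends of the same genes, 6 of 49 sites reached 200% (12.2%) and 10 stayed at or below 50%. Shares over all genes were not computed for far ends or for sites above 100%. The shared start of Col4a1 and Col4a2, a gene pair transcribed away from each other out of one promoter, had an index of 320%, 295%, 250% and 267% over 4 sites. The start shared by Col4a3 and Col4a4, the kidney and lung chains of type IV, was at 202%, 249%, 224% and 268% over 2 sites. These differed widely, with standard errors over sites of 131 to 219 points: 1 site alone was at 1288%, 1398%, 767% and 1286%.

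Among fibrillar genes, the Col1a2 start had 236%, 303%, 261% and 253% over 4 sites. The Col3a1 start, with no CpG in its upstream 250 bases, was still at 250%, 304%, 282% and 401% over 2 sites, one of them 273 bases upstream. The Col5a1 start was at 335%, 250%, 340% and 359% over 3 sites. These 3 starts were above 200% in every sample. Of the other starts, 4 were below 100% in every sample: Col6a6 at 45.5%, 51.7%, 12.5% and 37.4% (1 site), Col6a4 at 55.6%, 69.8%, 57.4% and 60.8% (3 sites), Col17a1 at 71.0%, 67.2%, 91.0% and 76.3% (1 site), and Col9a1 at 59.3%, 89.8%, 79.8% and 73.5% (4 sites). Col6a4 and Col6a6 encode type VI chains, Col17a1 encodes the hemidesmosome collagen of skin, and Col9a1 a cartilage collagen.

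The unmodified index was highest at the start and lower with distance from it, in the collagens and in all genes. In the 1 kb before the start the collagens were at 176%, 195%, 174% and 195% over 31 sites, below the 206%, 215%, 207% and 212% of all genes with a known strand. Within the first 1 kb of collagen genes it was 237%, 227%, 231% and 239% over 52 sites, where all genes had 202%, 206%, 202% and 203%. From 1 to 5 kb it was 130%, 133%, 128% and 129%, and from 5 to 20 kb 94.4%, 93.6%, 98.5% and 99.0%. Beyond 100 kb, in the tails of the long collagen genes, it was 79.6%, 83.4%, 84.3% and 84.3% over 788 sites, and 83.6% to 87.2% over all genes. The share of collagen sites at or above 200% in all 4 samples fell from 61.5% in the first 1 kb to 10% beyond 100 kb.

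**Figure D1:**
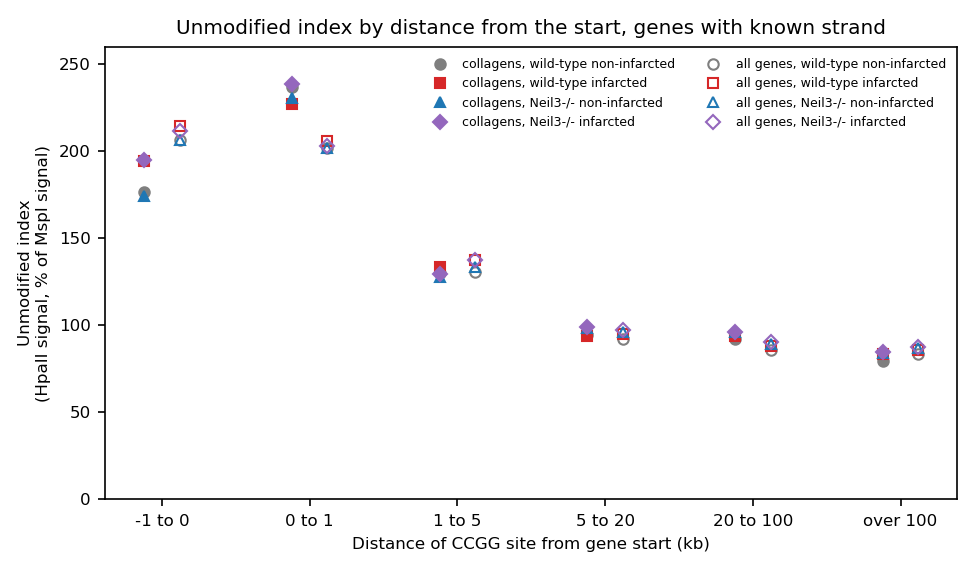
Unmodified index (HpaII signal as a percent of MspI signal, vertical axis) of CCGG sites pooled by distance from the gene start in kb (horizontal axis), for collagens (filled) and all genes with known strand (open), 1 symbol per sample. In the 1 kb before the start the collagens lie below all genes; in the first 1 kb after it they lie between 227% and 239% and all genes between 202% and 206%; beyond 20 kb all points lie below 100%.

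In 2 collagen genes the index was higher at a second start inside the gene than at the upstream start. Col18a1, whose product releases endostatin, has a long form from the upstream start and shorter forms from a start 52.8 kb further in. The upstream start had an index of 115%, 96.2%, 105% and 111% over 2 sites. These differed: one was at 209%, 228%, 212% and 211%, and the other, with an MspI signal of 174 to 189, at 91.4%, 69.7%, 83.9% and 91.3%. The MspI signal of the inner sites was lower, from 6.22 to 61.2 units, and its part in the difference was not tested. The inner start had 266%, 241%, 291% and 305% over 4 sites, and the longest run of consecutive sites at or above 200% in all 4 samples in this gene was the 4 sites at chr10:77112342-77113707, beginning at that start and running downstream. In Col9a1, also known to have a long and a short form, the upstream start had 59.3% to 89.8% over 4 sites. Its inner start, 17.6 kb downstream, had 264%, 231%, 250% and 323% over 2 sites. The MspI signal was 10.7 to 36.4 units at these 2 sites and 63.6 to 110 at the strongest upstream site. Its part in the difference was not tested here either. In both genes the pooled index of the inner start was above that of the upstream one in each of the 4 samples. These 2 genes were chosen for this description after their values were seen. The only other collagen with more than 1 window, Col6a2, has starts so close together that they share the same single site.

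**Figure D2:**
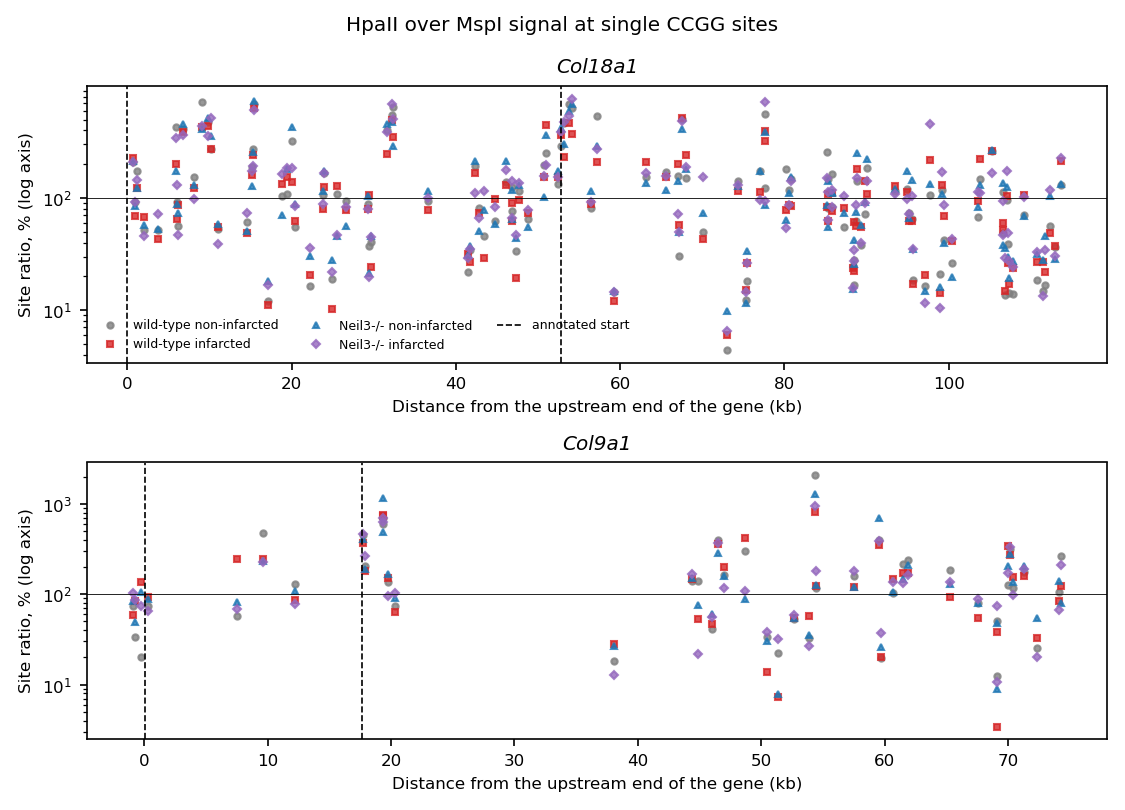
Ratio of HpaII to MspI signal in percent (log axis) at every usable CCGG site of Col18a1 and Col9a1 against distance from the upstream end of the gene in kb; symbols are the 4 samples and dashed lines are annotated starts. At the inner starts, 52.8 kb and 17.6 kb along, the nearest sites lie above 100% in all 4 samples.

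Runs of sites at or above 200% in all 4 samples also lay at the starts of Col9a2 (7 consecutive sites), Col11a1 (4), Col3a1 (4) and Col4a1 (4). Run lengths over all genes were not computed. Col9a2, whose product decorates cartilage fibrils, had its run from 214 bases upstream to 2319 bases downstream of the start. Further inside, a run of 4 such sites lay in Col16a1, 27589 to 31562 bases after its start, and a run of 5 in Col4a2, from 43813 bases after its start. Col27a1 held a run of 5 at chr4:63216248-63218286, from 2239 bases inside the upstream end of its span. The start of its promoter window lies between these, at chr4:63215412. Col1a1 and Col12a1, for which no strand was known, also held runs of 5. That of Col12a1 lay 115504 to 120640 bases from the lower-coordinate end of its 122155 bases, so near its other end. Runs of sites at or below 50% in all 4 reached 6 sites in Col22a1 and in Col6a6 and 5 in Col11a1. Over the whole gene spans, 487 of 3182 collagen sites were at or above 200% in all 4 samples (15.3%, against 18% of sites over all genes), and 500 were at or below 50% in all 4 (15.7%, against 17.7%). Both shares were slightly below those of all genes.

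Gene bodies, which leave out 1 kb at each end, could be measured with at least 10 sites in 41 of the 42 collagens; Col10a1 had 3 body sites. The median unmodified index over the 41 was 88.8%, 90.7%, 92.9% and 91.4%, next to 87.6%, 90.8%, 91.3% and 92.4% over the 9741 genes measured. Fibrillar genes had medians of 89.2%, 91.4%, 90% and 90.9%. Type IV genes had 93.0%, 93.5%, 97.5% and 95.2%, and the other collagens 88.6%, 88.7%, 92.9% and 92.5%. Differences between the classes were small beside the range within each: 56.5% to 171% among fibrillar genes in wild-type non-infarcted tissue, 75.7% to 126% among type IV genes and 49.1% to 145% among the others.

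Col1a1, which encodes the main chain of type I fibrils, had the highest body of all the collagens. Its index was 171%, 163%, 165% and 171% over 32 sites, at the 95.0th to 96.8th percentile of all genes. In this short gene (16819 bases, chr11:94936224-94953042), 17 of 38 sites were at or above 200% in all 4 samples and 1 was at or below 50%. Its partner chain Col1a2 was at 80.2%, 97.1%, 87.7% and 81.9% over 25 sites, with 3 of 29 sites at or above 200%. Col1a1 was above Col1a2, the gene of the other chain of the same heterotrimer, in all 4 samples. Col5a2, the fibril-nucleating chain next to Col3a1 on chromosome 1, was the lowest fibrillar gene, at 56.5%, 53.6%, 55.5% and 56.9% over 17 sites. Col5a1 was at 78.3%, 86.3%, 83.4% and 83.6% over 153 sites.

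Within type IV, the widespread chains were above the tissue-restricted ones. Col4a2 was at 126%, 116%, 133% and 125% over 141 sites and Col4a1 at 104%, 103%, 109% and 106% over 106 sites. Col4a3 was at 75.7%, 75.5%, 80.4% and 75.4% over 68 sites, and Col4a4 at 82.4%, 84.4%, 86.5% and 84.0% over 78 sites. The order Col4a2, Col4a1, Col4a4, Col4a3 was the same in all 4 samples. Divided into 4 equal stretches from its start, Col4a2 was high in the first 3, at 137%, 172% and 167% in wild-type non-infarcted tissue, and low in the last, at 76.7%. The last such stretch of Col4a1 was also its lowest, at 72.9%, 75.1%, 79.1% and 77.5%.

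The 6 type VI genes had medians of 75.5%, 78.5%, 76.8% and 77.8%, below those of all genes in each sample. Col6a5 went the other way, above the gene median in every sample, at 96.3%, 99.6%, 106% and 102%. Col6a1 was above it in non-infarcted Neil3-/- tissue only. Col6a2 had the lowest body of all the collagens in 3 of the 4 samples, with Col5a2 lower in wild-type infarcted tissue. It was at 49.1%, 57.9%, 52.9% and 53.2% over 33 sites, between the 5.57th and 9.88th percentile of all genes, with 15 of 38 sites at or below 50% in all 4 samples. Its neighbour Col6a1 was at 82.8%, 89.2%, 92.3% and 91.4%, and Col6a3 at 76.2%, 78.0%, 76.7% and 73.3%. The single site at the start of Col6a2 was at 505%, 715%, 303% and 561%, so its start was high while its body was low. Col8a2, a network-forming collagen, was second to Col1a1, at 145%, 144%, 145% and 147% over 26 sites. Its paralog Col8a1 was at 88.4%, 80.2%, 85.9% and 83.7%. The interrupted-helix collagens Col12a1 (117%, 123%, 120%, 128%) and Col14a1 (78.9%, 86.4%, 82.8%, 81.3%), both bound to fibril surfaces, lay on opposite sides of the gene median. The multiplexin Col15a1 was at 115%, 126%, 114% and 122%, and Col18a1 at 86.9%, 84.6%, 92.9% and 93.6%. Over the 41 genes, as a description, the mean body level had a Spearman correlation of -0.45 with gene length (Pearson -0.42) and of 0.33 with CCGG sites per kb (Pearson 0.38); the genes share the same libraries.

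**Figure D3:**
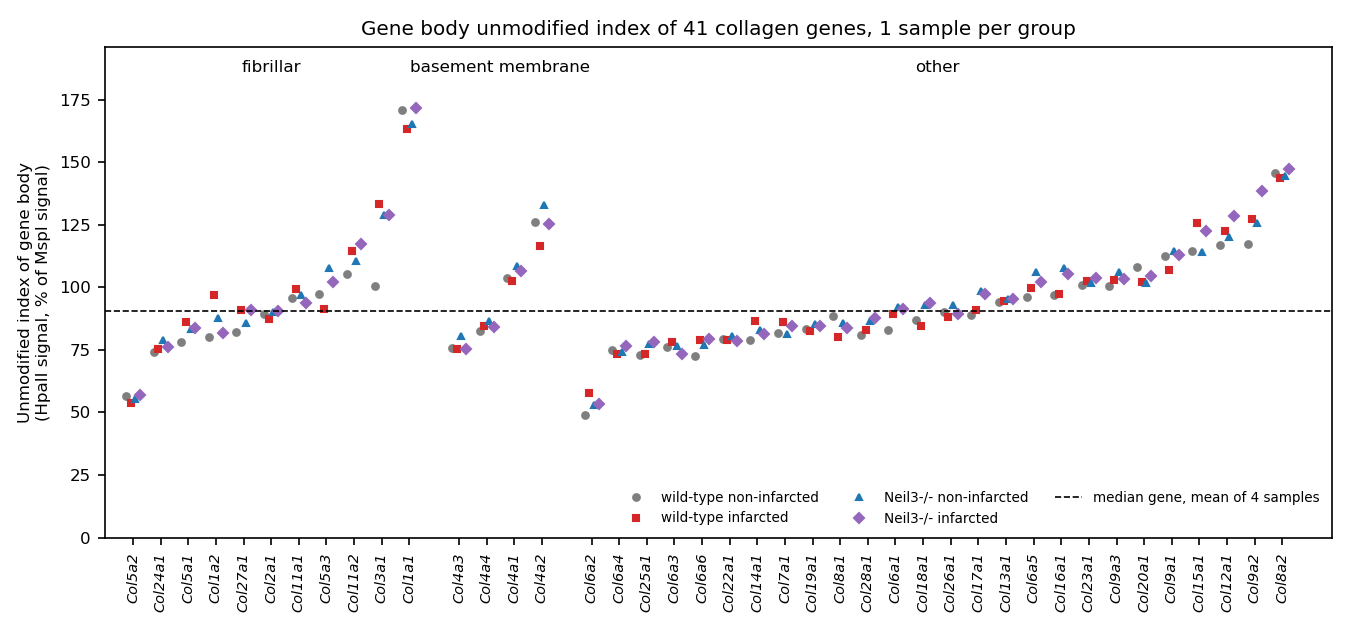
Unmodified index of the gene body (HpaII signal as a percent of MspI signal, vertical axis) of 41 collagen genes ordered within 3 classes by their mean, 1 symbol per sample, with the median gene dashed. Col6a2 and Col5a2 lie lowest and Col1a1 and Col8a2 highest in all 4 samples, and the spread between genes exceeds that between samples of a gene.

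In wild-type hearts, infarcted tissue differed from non-infarcted tissue by at least 20 percentage points in 1 of 41 collagen bodies, Col3a1, where 5.76% of all 9741 genes passed. The fibril collagen of the early scar was at 100.6%, 133%, 129% and 129% over 18 sites. Infarcted was above non-infarcted wild-type tissue by 32.8 ± 12.7 points, with 11 of 18 sites higher. Wild-type non-infarcted tissue was thus the low sample, and lowest of the 4 at 9 of the 18 sites. With a minimum site signal of 20 the difference was 18.6 points, and as a median of site ratios 15.7, both under 20. Of 4 equal stretches of the gene, the first, which carries the 2 sites of highest ratio, was at 448% in non-infarcted and 568% in infarcted wild-type tissue. The next was at 71.8% and 94.5%, the third at 63.0% and 93.0%, and the last at 110% and 106%.

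Col1a2 came next, at 16.9 ± 5.92 points above non-infarcted tissue, with 17 of 25 sites higher. Here wild-type infarcted tissue was the high sample of the 4. Col15a1 was 11 ± 5.05 points higher, with 48 of 83 sites higher, though as a median of site ratios the difference was -3.6. In the other direction the difference was -9.72 ± 3.75 points in Col4a2, with 49 of 141 sites higher. It was -8.20 ± 5.01 in Col8a1 and -7.85 ± 13.9 in Col1a1, the last within its error over sites. In Col4a2 the difference lay in the first 3 of the 4 stretches, where the index went from 137% to 121%, from 172% to 146% and from 167% to 149%, and not in the last (76.7% and 79.0%). Over all 41 genes 25 were higher in infarcted tissue, where 66.2% of all genes were. The median difference was 1.5 points, with 2.99 over all genes. With the libraries rescaled to equal totals the collagen median was -1.65 points and that of all genes -0.21, so the direction of this median depends on the scaling. A difference of at least 10 points was reached by 3 of 41 collagens and by 25.7% of all genes.

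In Neil3-/- hearts no collagen body reached 20 points between infarcted and non-infarcted tissue, where 2.93% of all genes did. Col9a2 had the largest positive difference, 12.7 ± 14.2 points (126% and 138%), followed by Col12a1 with 8.45 ± 5.73 and Col15a1 with 8.06 ± 4.48. Col4a2 was lowest again, at -7.72 ± 3.29 points (133% and 125%), with 55 of 141 sites higher. The difference was -5.73 ± 5.00 in Col1a2 and -5.41 ± 4.46 in Col5a3, a minor chain of type V. Col3a1 differed by 0.29 ± 10.1 points. All 4 type IV genes were lower in infarcted Neil3-/- tissue, with differences from -7.72 to -2.09 points. In wild-type 3 of 4 were lower, from -9.72 to -0.20 points. Over all genes 57.0% were higher with infarction in Neil3-/- and 66.2% in wild-type hearts. The median over the 41 genes was 0.18 points, with 1.04 over all genes, and -1.44 and -0.19 with equal totals.

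Cell type composition of the samples was not measured, and a change in the share of a cell type cannot be told apart from a change within cells. Gene bodies of cardiomyocyte markers had a median difference of -12.3 points with infarction in wild-type and -7.66 in Neil3-/- tissue, with 3 of 16 markers higher in each. Those of leukocyte markers were 11.4 and 7.23 points higher at the median, with 12 and 9 of 14 markers higher, and those of endothelial markers differed by -5.09 and -1.38, with 5 and 6 of 16 higher. Fibroblast markers were 12.6 and 0.77 points higher, with 5 and 4 of 8 higher. These differences appeared in the same comparisons as those of the collagens, and their part in the latter was not tested.

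**Figure D4:**
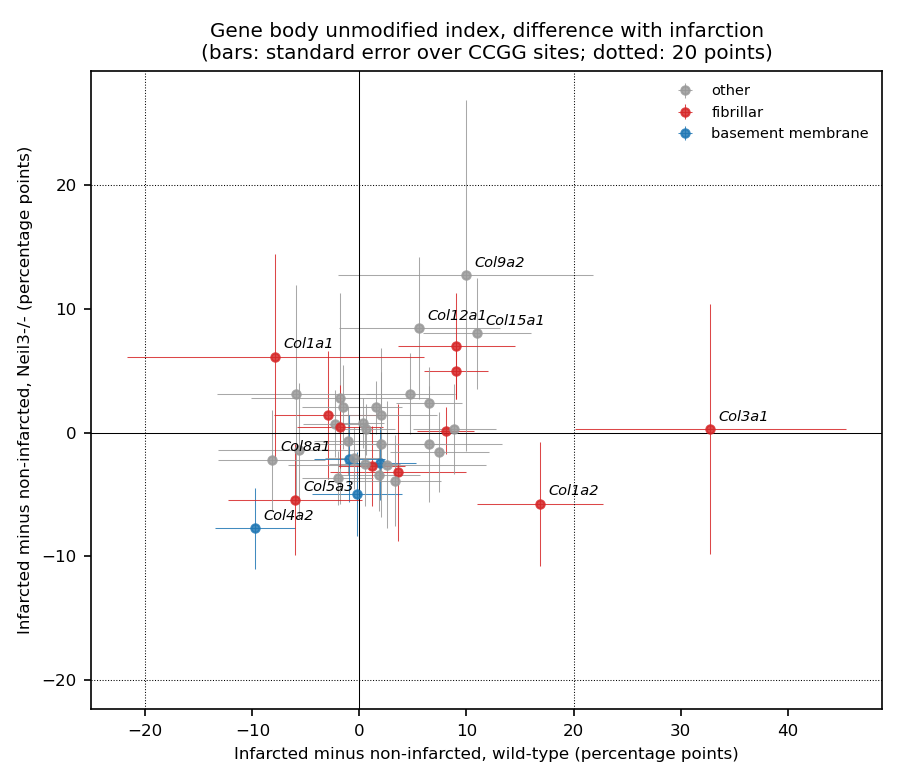
Difference in gene body unmodified index between infarcted and non-infarcted tissue in percentage points, wild-type on the horizontal and Neil3-/- on the vertical axis, 1 point per collagen gene coloured by class, bars showing the standard error over CCGG sites. Col3a1 alone passes 20 points, in wild-type only, and Col4a2 lies lowest in both genotypes.

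**Figure D5:**
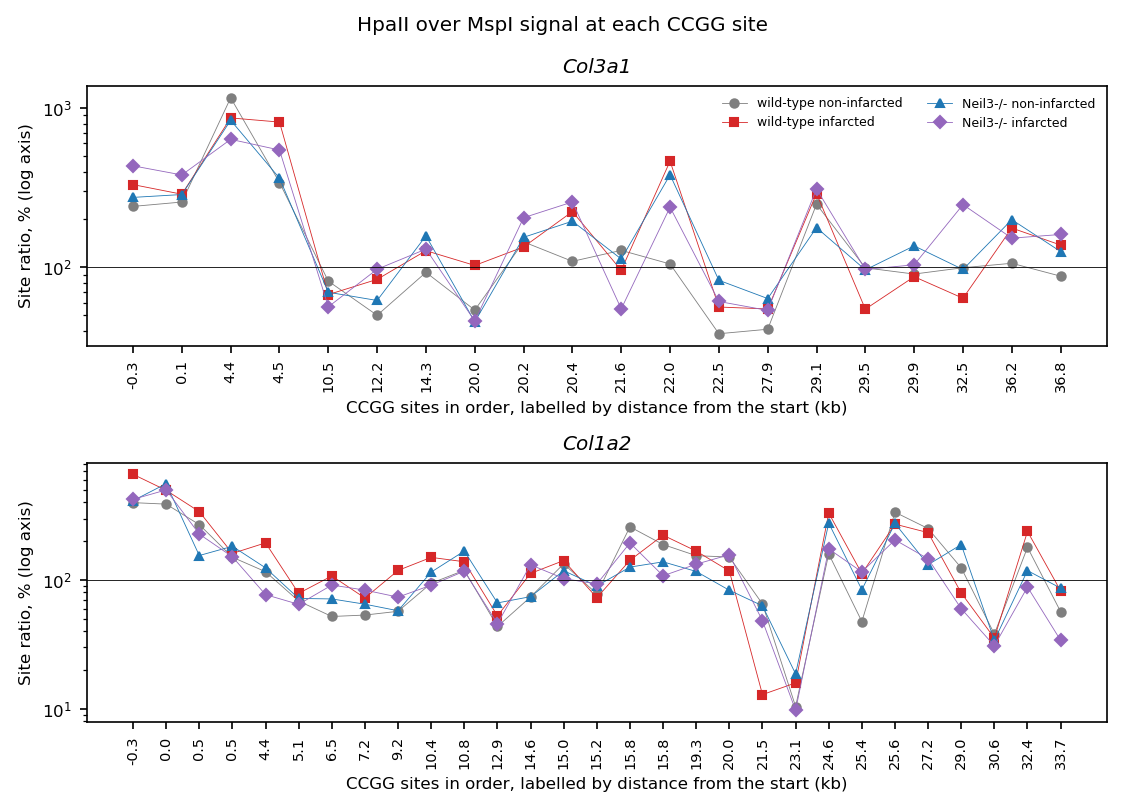
Ratio of HpaII to MspI signal in percent (log axis) at each usable CCGG site of Col3a1 and Col1a2, in order along the gene and labelled by distance from the start in kb, with 1 line per sample. Wild-type non-infarcted tissue is the lowest sample at 9 of the 18 body sites of Col3a1, and the order of the samples changes from site to site in both genes.

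Between genotypes, non-infarcted Neil3-/- and wild-type tissue differed by at least 20 points in 1 of 41 collagens, again Col3a1 (28.1 ± 8.81 points higher in Neil3-/-, 11 of 18 sites higher), where 2.36% of all genes did. Both differences of Col3a1 rest on the same wild-type non-infarcted sample. Col16a1, a fibril-associated collagen, was 10.9 ± 4.74 points higher (96.8%, 97.3%, 108% and 105%) and Col5a3 10.2 ± 6.41 points higher. The lowest were Col20a1 at -6.56 ± 6.82, Col1a1 at -5.68 ± 10.9 and Col8a1 at -2.51 ± 4.16 points, all within their errors over sites. Of the 41 genes 33 were higher in Neil3-/-, with a median of 3.91 points. Over all genes 75.1% were higher, with a median of 3.52. With equal totals these medians were 1.22 and 0.63, and as medians of site ratios -0.40 and 1.94.

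In infarcted tissue no collagen reached 20 points between the genotypes, where 3.02% of all genes did. Neil3-/- minus wild-type was -15.2 ± 6.69 points in Col1a2, with 7 of 25 sites higher. It was -5.42 ± 6.19 in Col11a1 and -5.10 ± 4.31 in Col14a1. Col9a2 was 11.2 ± 14.2, Col5a3 10.8 ± 5.32 and Col18a1 9.03 ± 3.21 points higher in Neil3-/-, the last with 72 of 114 sites higher. Col5a3, at 97.4%, 91.4%, 108% and 102%, was thus higher in Neil3-/- in both tissues. The median was 2.33 points over the collagens and 1.45 over all genes, and as medians of site ratios -1.23 and 0.32.

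An additive model of tissue and genotype over the 4 samples, fitted with limma to the log2 ratio of all 9741 gene bodies, leaves 1 residual degree of freedom. No collagen and no other gene passed an adjusted p of 0.05 for infarction (0% of genes called) or for genotype (0%). Without adjustment, 0 of 41 collagens had p under 0.05 for infarction, with 1306 of all genes, and 1 of 41 for genotype, with 899 of all genes. The 1 was Col5a3, with a log2 difference of 0.15 (SE 0.06) and an adjusted p of 0.505 in limma. Among the collagens the smallest adjusted p in limma for infarction was that of Col9a2, 0.407, followed by Col3a1, 0.424; over all genes the smallest was 0.235.

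Gene ends, within 1 kb on either side, had at least 5 sites in only 5 collagens. At these, 2 of 5 differed by at least 20 points with infarction in wild-type (43.8% of 3647 gene ends did), 1 of 5 in Neil3-/- (35.6%), 2 of 5 between genotypes in non-infarcted tissue (34.8%) and 1 of 5 in infarcted tissue (41.3%). Col9a3, a cartilage collagen, was at 298%, 271%, 240% and 281% over 6 sites. Its differences were -27.1 ± 50 points with infarction in wild-type, 41.1 ± 24 in Neil3-/-, and -57.5 ± 35 and 10.7 ± 14 between genotypes. Col2a1, the main cartilage fibril chain, was at 193%, 215%, 173% and 181% over 6 sites. It was 22.9 ± 24 points higher with infarction in wild-type, and Neil3-/- minus wild-type was -34.6 ± 17 points in infarcted tissue. Col26a1 was at 146%, 138%, 123% and 134% over 7 sites, and Neil3-/- minus wild-type was -22.7 ± 14 points in non-infarcted tissue. Col13a1, a transmembrane collagen, was at 270%, 256%, 273% and 267% over 7 sites and Col11a2 at 114%, 122%, 112% and 118% over 6 sites. Neither of these 2 reached 20 points in any comparison.

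The glucosylated index, which falls where 5-hydroxymethylcytosine keeps MspI from cutting, had body medians of 102%, 102%, 100% and 103% over the collagens, above the 92.3%, 94.1%, 93.8% and 95.3% of all genes. The type IV medians were 83.7%, 84.1%, 83.5% and 89.3%. Col4a1, Col4a3 and Col4a4 lay below the median of all genes in each sample, and Col4a2 above it, at 106%, 107%, 98.2% and 108%. Between infarcted and non-infarcted wild-type tissue 3 of 41 bodies differed by at least 20 points (8.45% of all genes did). Between genotypes in non-infarcted tissue there were 2 (6.85%). Both comparisons use the glucosylated library that stood apart. Col1a1 was at 168%, 141%, 141% and 134% and Col9a3 at 160%, 133%, 129% and 135%, each highest in that sample by over 20 points. Col5a2, at 59.4%, 86.9%, 73.1% and 68.2%, was 27.5 ± 8.96 points higher in infarcted wild-type tissue.

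In the comparisons without that library, none of the 41 bodies reached 20 points with infarction in Neil3-/- hearts (1.75% of genes did). Between genotypes in infarcted tissue 1 did (1.96%): Col1a2, at 102%, 104%, 89.5% and 81.5%, differed by -22.2 ± 6.33 points, with 5 of 25 sites higher in Neil3-/-. Col4a2 was 9.77 ± 2.36 points higher with infarction in Neil3-/- hearts (98.2% and 108%), with 93 of 141 sites higher, opposite to its unmodified index. At gene ends 0 of 5 collagens reached 20 points with infarction in Neil3-/- (26.2% of all ends did) and 1 of 5 between genotypes in infarcted tissue (26.6%). With the library that stood apart, 4 of 5 were lower by at least 20 points with infarction in wild-type (57.3% of all ends passed) and 2 of 5 between genotypes in non-infarcted tissue (42.9%). In the wild-type comparison the median of all ends was itself -22.8 points, with 16.9% of ends higher. Relative to the median gene, 1 collagen end was higher and 1 lower by at least 20 points.

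Single sites that moved alike in both genotypes or both tissues were few. With infarction, 22 of 3182 collagen sites were at least 2-fold higher in both genotypes (0.691%, and 0.994% over all genes) and 24 were at least 2-fold lower (0.754%, and 0.7%). In Neil3-/-, 20 sites were at least 2-fold higher in both tissues (0.629%, and 0.785%) and 23 at least 2-fold lower (0.723%, and 0.662%). Col15a1 held 5 of the 22 sites higher with infarction among its 90 sites, and none that were lower. Its site 45.7 kb from the start was at 18.6%, 53.8%, 15.9% and 43.1%, and the one 96.3 kb from the start at 58.6%, 146%, 49.2% and 116%. The last of 4 equal stretches of Col15a1 was at 106%, 130%, 102% and 127%, while the first was at 155%, 151%, 151% and 156%. Col14a1 held 3 of the 24 lower sites among 75, and Col4a3 held 3 of the 23 sites lower in Neil3-/- among 71. These genes were named after their site counts were seen.

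Of 3501 CCGG sites listed in any sample within the collagens, 94.4% were listed in all 4, and 90.7% over all genes. There were 9 listed in both wild-type and neither Neil3-/- sample, and 5 the other way round (0.257% and 0.143%, next to 0.643% and 0.286% over all genes).

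The enzymes that modify, trim and cross-link collagen were described from a list of 31 genes. Of these 22 had a measured body, and in the body unmodified index none reached 20 points, where 5.76%, 2.93%, 2.36% and 3.02% of all genes did in the 4 comparisons. In the glucosylated body index 1, 0, 1 and 1 of 22 did, next to 8.45%, 1.75%, 6.85% and 1.96% of all genes. Of the 7 measured ends, 4, 4, 3 and 5 passed in the unmodified index, where 43.8%, 35.6%, 34.8% and 41.3% of all ends did. In the glucosylated index 4, 3, 4 and 4 of these ends passed, where 57.3%, 26.2%, 42.9% and 26.6% of all ends did. The median differences of the body unmodified index were 2.20 and 0.85 points with infarction in wild-type and Neil3-/- hearts, and 5.75 and 0.75 between genotypes in non-infarcted and infarcted tissue. In wild-type infarction P3h3 (16.5 ± 12.7) and P3h1 (12.3 ± 7.9), which hydroxylate proline, were highest. Bmp1, which cuts the procollagen tail (-11.0 ± 4.1), and the cross-linker Loxl1 (-10.6 ± 7.3) were lowest. In Neil3-/- infarction Tll1 (8.2) and Adamts14 (6.3) were highest, and Mia3 (-13.9), needed for procollagen export, and P4ha1 (-11.9) lowest. Between genotypes, P4ha1 (17.1) and P3h1 (13.1) were highest and Loxl1 (-10.8) and Bmp1 (-3.7) lowest in non-infarcted tissue. In infarcted tissue Bmp1 (12.7) and Pcolce2 (8.2) were highest and P3h1 (-8.4) and P3h3 (-6.5) lowest.

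All 10 receptor genes had a measured body, with median differences of the unmodified index of 2.69, 0.27, 5.32 and 1.98 points in the same order. Itgb1, the beta chain of the collagen-binding integrins, was at 119%, 104%, 111% and 96.3% over 10 sites. Its infarct difference was -14.7 ± 12.1 points in wild-type and -14.7 ± 7.0 in Neil3-/- hearts, the lowest receptor in both. The highest were Itga2 (12.1) and Itga1 (9.9) in wild-type, with Ddr1 (-7.2) next lowest, and Ddr1 (9.5) and Itga10 (2.2) in Neil3-/-, with Itga1 (-4.3) next lowest. Between genotypes Gp6 (16.7) and the fibroblast receptor Ddr2 (15.0) were highest in non-infarcted tissue, where Itgb1 (-7.9) and Ddr1 (-1.2) were lowest. In infarcted tissue Gp6, the platelet collagen receptor, reached 20 points (20.2 ± 15.5 over 10 sites), 1 of 10 receptors where 3.02% of all genes did. It was followed by Ddr1 (15.5), with Itgb1 (-7.9) and Itga1 (-7.4) lowest. In the glucosylated body index 1, 0, 1 and 0 of 10 receptors reached 20 points, next to 8.45%, 1.75%, 6.85% and 1.96% of all genes. Both comparisons with 1 such receptor use the glucosylated library that stood apart.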

How the data were processed

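The deposited files list CCGG sites with a signal per site and library, which the authors had normalized before deposit. The build is mm10 per the submitters' processing notes, and the digests are as in the labels' protocols; normalization method, aligner and filters: not given in the sources used here. The signal holds no whole tag counts, so no count test or counting interval was used. Sites listed in all 4 samples with a mean signal of at least 10 over both MspI libraries were used on 19 autosomes. Genes, spans and strands came from RefSeq tables on GRCm38.p6. Strand was known for 33 members, and the upstream end of the span was taken as their start. For the other 9 the end with more sites was used. Exons and introns were not assigned. Indices are ratios of sums over sites, with linearised standard errors over sites. A gene was counted at 20 percentage points or more, with at least 10 body or 5 end sites. Python 3.11.15, numpy 2.4.6, pandas 2.3.3, matplotlib 3.10.9, R 4.3.3 and limma 3.58.1 were used, limma with Benjamini-Hochberg adjustment, and the fit was tested on simulated data. Named genes were 17 heart collagens by role, the 3 largest rises and falls per comparison and region, and 2 each way among processing and receptor genes. Members, lists and rules were chosen with earlier results of these data known. Alternatives were other signal minima, windows, thresholds, scalings and summaries.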

Additional observations from a re-analysis of the deposited data

Results flagged for a closer look

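The gene body of Col1a2 was 16.9 percentage points higher in infarcted than in non-infarcted wild-type tissue while the difference was -5.73 points in Neil3-/- tissue, so the infarct differences of the genotypes were of opposite sign and 22.6 points apart. The gene end of Col9a3 differed by -27.1 points with infarction in wild-type and by 41.1 points in Neil3-/- hearts, and the difference between them was -68.2 points. With 1 sample per group neither difference was tested. As a median of site ratios, Col1a2 was 23.0 points higher in wild-type and 1.4 points higher in Neil3-/- tissue.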

How the results depend on the processing

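No paired analysis was possible because each group has 1 sample and the labels give no replicate numbers; for the same reason no replicate could be left out. Counts of members follow in the order wild-type infarct, Neil3-/- infarct, non-infarcted genotype, infarcted genotype, or with the comparison named. The direction of a difference past 20 points was checked only for the Col3a1 body, in wild-type infarct and in the non-infarcted genotype comparison. It did not turn in these alternatives. Ends and glucosylated bodies were compared by counts only. Of the unmodified ends in wild-type infarct, 1 was higher and 1 lower in the main analysis, and 0 and 2 with equal totals. Of the summary values, 142 stayed close to the main value (for a count, within 1.5 times) and 76 did not. With the median of site ratios the body unmodified counts were 5, 3, 2 and 6 of 41 (21.3%, 17.4%, 16.9% and 18.7% of all genes). Body glucosylated counts were 7, 3 and 4 in the first 3 comparisons (22.0%, 11.2% and 20.7% of all genes). End unmodified counts were 4 of 5 in each of the last 3 (62.7%, 62.5% and 67.2% of all ends). End glucosylated counts were 4, 5 and 2 in the last 3 (48.9%, 64.5% and 47.7% of all ends). At 10 points, body unmodified counts were 3, 1, 3 and 3 of 41 (25.7%, 17.4%, 16% and 18.1% of all genes). Body glucosylated counts were then 8, 3, 5 and 6 (32.3%, 15.9%, 29.1% and 17.1% of all genes). End unmodified counts were 2 of 5 in Neil3-/- infarct and 3 in infarcted genotype (61.2% and 66.4% of all ends). End glucosylated counts were 2, 4 and 3 in the last 3 comparisons (56.7%, 68.8% and 57.7% of all ends). At 30 points, the body unmodified count was 0 in the non-infarcted genotype comparison (0.329% of all genes). In the wild-type infarct and the 2 genotype comparisons, body glucosylated counts were 0, 1 and 0 (2.81%, 1.96% and 0.205% of all genes). End unmodified counts were 0 in wild-type infarct (27.3% of all ends) and 1 in non-infarcted genotype (19.6%). End glucosylated counts were 2, 1 and 0 in the wild-type infarct and genotype comparisons (40.6%, 26.2% and 11.2% of all ends). A minimum signal of 20 left 0 unmodified bodies in wild-type infarct (3.97% of all genes). It left 0 glucosylated bodies in the infarcted genotype comparison (1.65%). Equal library totals gave 2 glucosylated bodies (2.24%) and 0 glucosylated ends (27.6% of all ends) in infarcted genotype. Relative to the median gene there was 1 unmodified end in wild-type infarct (44.1%). Glucosylated ends were then 2, 1 and 0 in wild-type infarct and the genotype comparisons (43.7%, 39.8% and 25.8%). A window of 500 bp, with 3 ends measured, gave 1 glucosylated end in wild-type infarct (52.3%) and 1 in non-infarcted genotype (35.8%). A 2 kb window, which measures more genes, gave 10, 7, 9 and 8 unmodified ends of 23 (41.9%, 32.7%, 31.0% and 37.9% of all ends). It gave 16, 2, 12 and 4 glucosylated ends (55.7%, 22.6%, 43.5% and 23.7% of all ends). At least 3 sites gave 14, 7, 12 and 10 unmodified ends of 21 (52.8%, 44.4%, 43.7% and 49.8% of all ends). Glucosylated ends were then 13, 4, 10 and 8 (61.6%, 33.3%, 51.2% and 34.4% of all ends). Without the site of most MspI signal there were 3 of 5 unmodified ends in Neil3-/- infarct (51.0% of all ends). Glucosylated ends were 2, 4 and 2 of 5 in the last 3 comparisons (39.0%, 58.8% and 39.7% of all ends). The class median minus the gene median, averaged over the samples, was 4.31 points for type IV, -0.15 for fibrillar and 0.16 for other collagens. It was 8.28, 1.71 and 5.69 by the median of site ratios. It was 0.42 for type IV and -2.61 for fibrillar without the site of most MspI signal, 6.43 for type IV and 2.10 for other collagens without 2 kb at each end, 6.90 with types XV and XVIII in the type IV class, -1.79 and -1.98 for fibrillar at a minimum of 5 or none, and 1.92 for other collagens at a minimum of 20. The fibrillar class thus lay on either side of the gene median. The cause of these shifts was not tested. The number of tags behind the signal is unknown, so depth sets no stated limit here.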
